A study of Arabidopsis thaliana with 3 samples.

Results

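A pair of circadian clock genes, GI (AT1G22770) and TIC (AT3G22380), and a pair of auxin-response genes, IAA29 (AT4G32280) and GH3.3 (AT2G23170), were followed in Arabidopsis thaliana plants that lacked the transcription factor HY5 and had been kept in the cold. The 4 loci were chosen by name, with their ratios on these arrays already known, and all 4 were found among 7234 named loci. Each of 3 two-colour microarrays carried RNA of the hy5-1 mutant in the red channel (Cy5) and RNA of its Landsberg erecta wild type, Ler, in the green channel (Cy3). Both genotypes were 3 weeks old, had grown at 22 °C in long days (16 h light, 8 h dark), and had then spent 1 day at 4 °C. The arrays were labelled as biological replicates 1, 2 and 3. The cold was shared by mutant and wild type, so every value below compares genotypes in the cold and says nothing of cold against warmth. The sources used here state neither the time of day at harvest nor the organ sampled, and a single mutant allele, hy5-1, stood for the loss of HY5.

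HY5 is a bZIP transcription factor that acts downstream of the photoreceptors and promotes light responses. The plant clock is built of feedback loops between genes that peak in the morning and genes that peak in the evening. GI (GIGANTEA) is an evening gene whose protein stabilises the F-box photoreceptor ZTL, drives flowering in long days and has a known part in freezing tolerance. TIC (TIME FOR COFFEE) encodes a nuclear protein needed to keep the clock's amplitude and timing late in the night. In the auxin pathway, Aux/IAA proteins such as IAA29 bind auxin response factors and hold back their targets until auxin triggers their destruction. GH3.3 belongs to the enzymes that join auxin to amino acids and so lower the free hormone, and its transcript is a common early readout of auxin.

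The deposited values were log2 ratios of the red and green channels, and a value below 0 was read as a lower transcript level in hy5-1 than in Ler. That direction is not settled, because no source used here states the numerator. It was taken from the dyes, with the red channel over the green as is usual and hy5-1 labelled red. The titles of the samples name Ler first, which speaks for the opposite reading, and under it all directions below would turn together. The dyes were not exchanged on any array, so a dye effect of a probe cannot be told apart from a genotype effect. Across the 7234 loci the arrays had medians of 0, and their ratios correlated at 0.759 between replicates 1 and 3, at 0.512 between 1 and 2 and at 0.504 between 2 and 3, across genes that are not independent replicates. Replicate 2 thus stood apart from the other 2 arrays. Ratios carry no transcript levels, so the identity of the tissue could not be checked from markers. HY5 was among the genes looked for but had no feature among those named here, which left the genotypes unchecked by that gene. Which feature belongs to which gene rests on an ordering of the array that was found from the values. With that ordering, repeat spots of the 7 genes spotted 10 times or more varied within a gene by 0.035 of their total variance, against 0.978 with the row numbers as given. Because the ordering was found from these same values, this is no independent check of the gene names.

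TIC had the lowest ratio of the 4 genes on every array. Its log2 ratio was -1.81 in replicate 1, -1.36 in replicate 2 and -1.32 in replicate 3. All 3 values lay far below 0, and replicate 1 was the lowest. The mean was -1.50 ± 0.27 (SD, n = 3), a 2.82-fold lower level in hy5-1, and only 22 of the 7234 loci had a lower mean. By array, 20 loci were below TIC in replicate 1, 103 in replicate 2 and 41 in replicate 3. Counting TIC itself, 12 loci had all 3 ratios at or below -1.32, the highest of the TIC values. TIC was thus among the lowest loci of each array, replicate 2 included.

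GI was also below wild type on the 3 arrays, but unevenly. Its log2 ratio was -1.03 in replicate 1, -0.32 in replicate 2 and -0.85 in replicate 3. Replicates 1 and 3 were close to each other, and replicate 2 was nearer to 0. In fold terms the mutant had a 2.04-fold lower level in replicate 1 and a 1.25-fold lower level in replicate 2. The mean was -0.73 ± 0.37 (SD, n = 3), or 1.66-fold lower. GI was lower than all but 2.97% of loci in replicate 1 and all but 3.43% in replicate 3, whereas in replicate 2 the share of loci below it was 21.0%. Replicate 2 departed from the mean of the other 2 arrays by 0.62, and 11.8% of loci departed by more in either direction. The low ratio of GI therefore rested mainly on replicates 1 and 3.

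**Figure D1:**
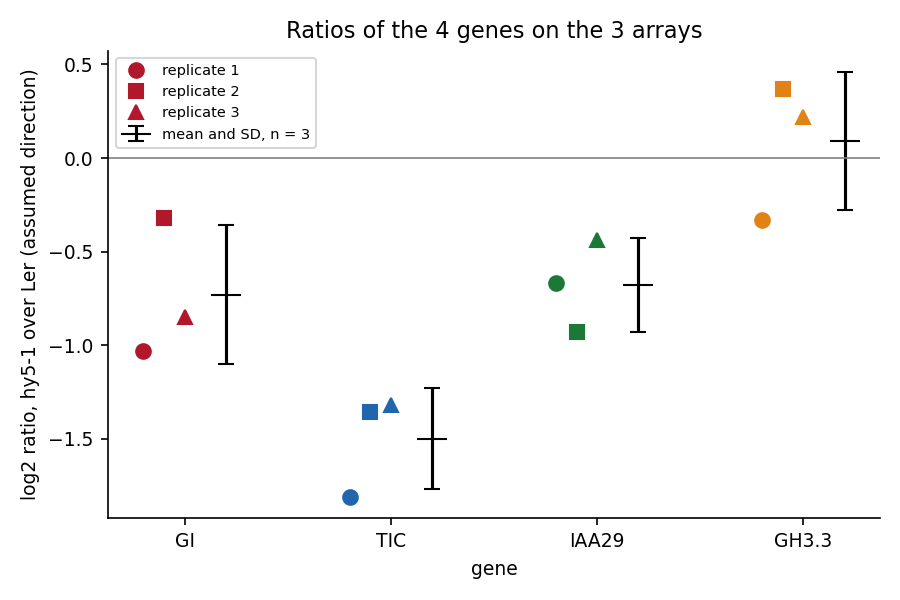
Log2 ratio of hy5-1 over Ler (vertical axis) for GI, TIC, IAA29 and GH3.3, with a coloured symbol for each of the 3 arrays and, in black, the mean with its SD (n = 3). All values of GI, TIC and IAA29 lie below 0, from -1.81 to -0.32, and those of GH3.3 lie on both sides of 0, from -0.33 to 0.37.

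IAA29 was below wild type on the 3 arrays as well, with its arrays in another order. Its log2 ratio was -0.67 in replicate 1, -0.93 in replicate 2 and -0.44 in replicate 3. Replicate 2, where GI was nearest to 0, gave the lowest value of IAA29. The mean was -0.68 ± 0.25 (SD, n = 3), a 1.60-fold lower level. The share of loci with a lower ratio was 8.23% in replicate 1, 4.56% in replicate 2 and 13.5% in replicate 3. The mean of GI minus that of IAA29 was -0.05, while the difference on single arrays was -0.36, 0.61 and -0.41, so which of them was lower changed with the array.

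GH3.3 did not follow the other genes. Its log2 ratio was -0.33 in replicate 1, 0.37 in replicate 2 and 0.22 in replicate 3. One array lay below 0 and the other two above it, and the largest departure in either direction was a 1.29-fold difference. The mean of 0.09 ± 0.37 (SD, n = 3) was smaller than its SD. On every array GH3.3 had the highest ratio of the 4 genes, and the ratio of IAA29 minus that of GH3.3 was -0.34, -1.30 and -0.66 in replicates 1, 2 and 3. The order from low to high was TIC, GI, IAA29, GH3.3 in replicates 1 and 3, and TIC, IAA29, GI, GH3.3 in replicate 2. Between neighbours in that order, TIC differed from the next gene by -0.78, -0.43 and -0.47 on the 3 arrays, whereas GI and IAA29 could not be ordered.

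**Figure D2:**
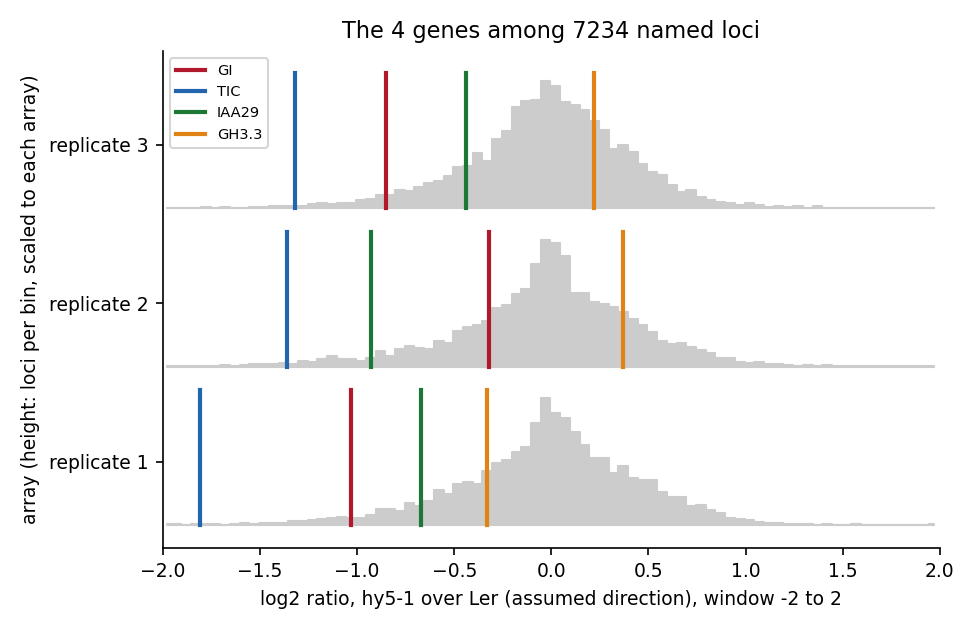
Histograms of the log2 ratio (horizontal axis, from -2 to 2) of the 7234 named loci on each array, scaled to the same height, with coloured lines at the values of the 4 genes. TIC lies in the far lower tail of the 3 arrays, GI in the lower tail of replicates 1 and 3 but nearer to the centre in replicate 2, and GH3.3 below the centre in replicate 1 and above it in the others.

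When the mean ratio of every named locus was tested against 0 with limma and p-values were adjusted over the 7234 loci by the Benjamini-Hochberg method, 3 of the 4 genes passed the threshold of 0.05, all of them lower in hy5-1 (GI, TIC and IAA29). Of all loci 17.2% passed, 7.88% higher and 9.29% lower. Since the genes were chosen with these same ratios in view, their calls are a description and no evidence about the clock or auxin pathways as a whole. Of the 3, TIC alone was past a 2-fold difference. The SDs of GI and GH3.3 over the arrays were exceeded by 15.2% of loci each, that of TIC by 30.1% and that of IAA29 by 35.7%, and the median SD over all loci was 0.19. All 4 genes were thus more variable between arrays than the median locus.

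**Figure D3:**
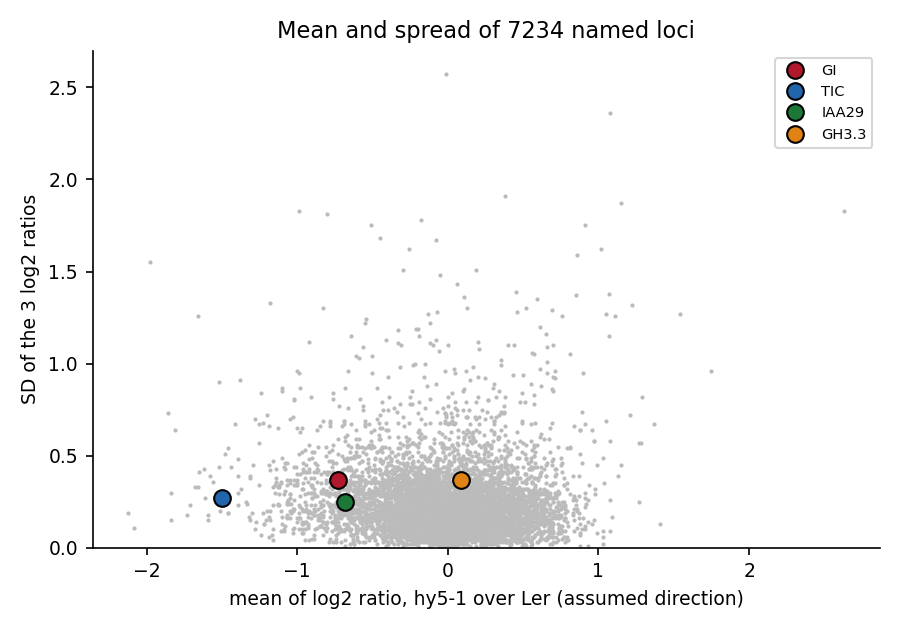
Mean (horizontal axis) against SD (vertical axis) of the 3 log2 ratios for each of 7234 named loci in grey, with the 4 genes in colour. TIC lies in the lower tail at a mean of -1.50, GI and IAA29 lie close together in their means, and GI and GH3.3 share an SD of 0.37.

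Other genes of the clock were hardly represented on the named features. Of 46 listed genes of the oscillator and its regulators 3 were measured, GI, TIC and RVE6. RVE6, a MYB-like factor of the family that activates evening genes, had log2 ratios of -0.14, 0.05 and -0.58 in replicates 1, 2 and 3. These values fell on both sides of 0, with a mean of -0.22 ± 0.32 (SD, n = 3), and RVE6 did not pass (limma adjusted p = 0.342, 95% interval -0.60 to 0.15). Of the 3 measured genes 0 rose and 2 fell, against 7.88% and 9.29% of all loci, but both that fell were GI and TIC, chosen with these ratios known. The median of the list, -0.73, is the mean of GI itself, and without GI and TIC the list holds only RVE6, at -0.22, against a median of 0 over all loci. Among 12 listed outputs and partners of GI, SPY alone was measured. SPY, an O-fucosyltransferase that represses gibberellin signalling and binds GI, had ratios of 0.08, 0.53 and 0.54. SPY was above 0 on the 3 arrays, at a mean of 0.38 ± 0.26 (SD, n = 3), and did not pass (limma adjusted p = 0.101, 95% interval 0.05 to 0.72). Its unadjusted limma p was 0.0313, under 0.05, and that of RVE6 was 0.188.

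TIC has a close relative in the same genome, TKL (TIC-like, AT3G63180), which was looked up after the values were known. TKL had log2 ratios of -0.22, 0.30 and 0.26 in replicates 1, 2 and 3. Its values lay on both sides of 0, and none came near those of TIC. The mean was 0.11 ± 0.29 (SD, n = 3), with a limma 95% interval of -0.24 to 0.46 and an adjusted p of 0.626. COR27 and COR28, cold-induced genes that also act on the clock, were looked up in the same way and had means of -0.28 ± 0.32 and 0.29 ± 0.34 (SD, n = 3 each), with limma adjusted p-values of 0.244 and 0.243.

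Of the auxin pathway, 118 genes were listed and 7 were measured. Besides IAA29 and GH3.3 these were IAA18, GH3.1, GH3.9, GH3.17 and YUC4. With limma 0 of these 5 passed, against 17.2% of all loci, and 0 had an unadjusted p under 0.05 (smallest adjusted p 0.628). So few genes cannot show whether the pathway differed from other loci. Among 29 Aux/IAA repressors, IAA18 was the other one measured. IAA18 had ratios of 0, 0.26 and -0.54 in replicates 1, 2 and 3, on both sides of 0, averaging -0.09 ± 0.41 (SD, n = 3; limma 95% interval -0.54 to 0.35). The interval of IAA18 overlapped the values of IAA29 only in part, and no test of the difference between these probes was made. Of this family 0 of 2 rose and 1 fell, against 7.88% and 9.29% of all loci. The 1 that fell was IAA29, chosen with its ratios known.

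Of 13 listed GH3 enzymes 4 were measured, and 0 rose and 0 fell, against 7.88% and 9.29% of all loci. At those shares a list of 4 genes can easily hold 0. GH3.1 stayed within -0.01 to 0.11, with a mean of 0.03 ± 0.07 (SD, n = 3). GH3.9 had a mean of 0.09 ± 0.16 (SD, n = 3), the same as the mean of GH3.3 but with less spread. GH3.17, which acts on auxin with glutamate as the partner amino acid, had ratios of 0, -0.66 and 0.34. GH3.17 was lowest in replicate 2, the array on which GH3.3 was highest, and its mean was -0.11 ± 0.51 (SD, n = 3). The median of the 4 means was 0.06, against 0 over all loci. Among the synthesis and turnover genes YUC4, a flavin monooxygenase of the last step of auxin synthesis, was the only one of 22 measured, at 0.05 ± 0.14 (SD, n = 3). The lists of auxin response factors and receptors, auxin transporters and SAUR genes had 0 measured members. The SAUR list held only the 16 loci whose gene symbol was SAUR and a number, and SAUR genes without such a symbol were not looked for. Neither the factors that IAA29 binds nor most auxin-induced transcripts were thus followed.

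Of 28 listed light receptors and signalling genes PIF7 was measured, and it did not pass. PIF7, a bHLH factor that promotes auxin synthesis in shade, had ratios of -0.08, 0.38 and 0.05, which averaged 0.12 ± 0.24 (SD, n = 3; limma adjusted p = 0.569). Of 8 flower and root markers EXPA18, an expansin of root hairs, was the only one measured, at 0.06 ± 0.06 (SD, n = 3), so a difference in organ make-up between the genotypes was all but untested. In RNA of many cells, less transcript per cell and fewer cells that express a gene cannot be told apart.

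**Figure D4:**
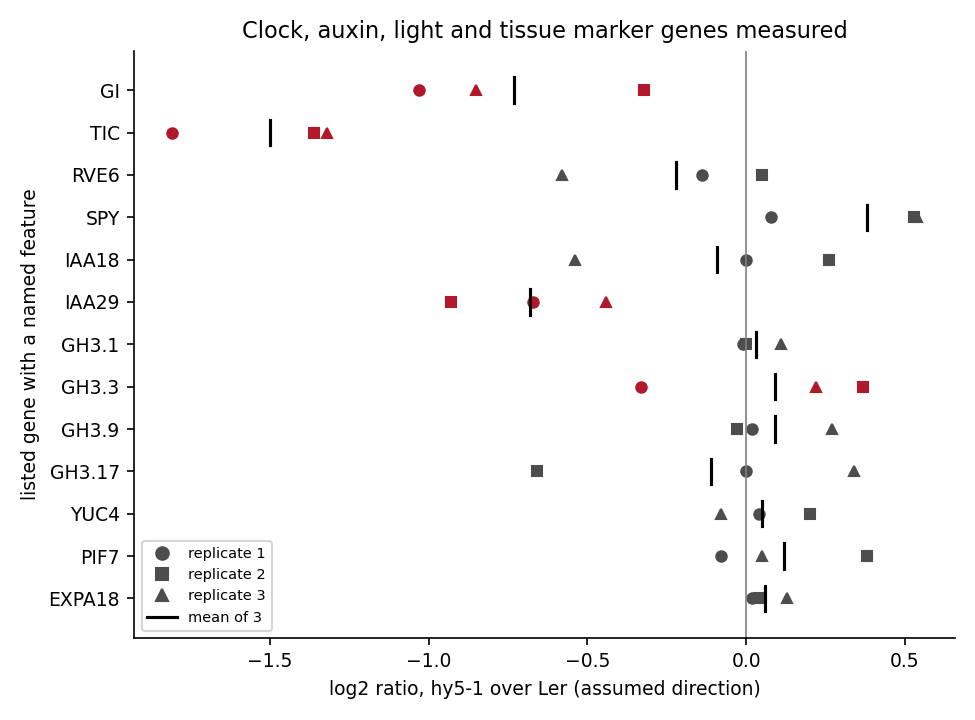
Log2 ratio of hy5-1 over Ler (horizontal axis) on the 3 arrays for the 13 measured genes of the clock, auxin, light and tissue marker lists, with GI, TIC, IAA29 and GH3.3 in red, the others in grey and the mean of 3 arrays as a black bar. GI, TIC and IAA29 are the genes with all values below 0, and the means of the 9 others lie between -0.22 and 0.38.

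The loci most like each gene were taken as those at the smallest Euclidean distance over the 3 log2 ratios, a measure over 3 arrays only. TIC had few near matches, with AT1G18090 and AT1G06720 both at a distance of 0.29 and AT5G50340 at 0.36, and 0 loci within 0.2. GI had 13 loci within 0.2, the closest being AT1G77800 at 0.08, then GSTF3, a glutathione S-transferase, and AT5G11720 at 0.11 each. GSTF3 has near-identical relatives, so its ratio may hold theirs. Around IAA29 there were 21 loci within 0.2, led by AT3G24180 at 0.10, AT5G65180 at 0.11 and AT4G20840 at 0.13. GH3.3, nearest to the centre of the distribution, had 30, led by AT3G60860 at 0.05, CRR28 at 0.06 and AT5G61560 at 0.08.

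The nearest named loci on the chromosomes had means nearer to 0 than GI and TIC, but most were not direct neighbours. From 0 (AT4G32285 after IAA29) to 12 (AT3G22270 before TIC) other protein-coding genes lay in between, and 10 lay between AT1G22660 and GI. The order of genes was taken from the RefSeq table of assembly TAIR10.1. The nearest named locus before GI was AT1G22660, at a mean of -0.13 ± 0.36 (SD, n = 3), and the nearest after it was AT1G22790, at -0.14 ± 0.14. TIC lay between AT3G22270, with ratios of 1.06, -1.14 and 1.44, and AT3G22410, with a mean of -0.10 ± 0.34 (SD, n = 3). IAA29 lay between AT4G32240 and AT4G32285, the latter its direct neighbour at -0.18 ± 0.19 (SD, n = 3). AT4G32240 was at -0.44 ± 0.12 (SD, n = 3). It was the only one of these 8 neighbours to pass (limma adjusted p = 0.0423), against 17.2% of all loci. On the sides of GH3.3 were AT2G23100, at 0.04 ± 0.17, and AT2G23200, at -0.61 ± 0.50 (SD, n = 3 each).

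Each of the 4 genes was read by a single feature, so no gene could be checked on another probe. On the array surface the 24 spots around each of them had medians from -0.08 to 0.04. Of the 24 spots around TIC, 0 were as low as TIC on any array. Only 0.276%, 1.42% and 0.567% of named loci lay below TIC in replicates 1, 2 and 3, so that count says little about the array surface. The surrounding spots came from all 45220 features, most of them not named, so shares over named loci are no exact base rate for them. In replicates 1, 2 and 3 the median absolute deviation was 0.14, 0.09 and 0.13 over all features, against 0.27, 0.26 and 0.24 over named loci. Around GI, 0 spots in replicate 1, 4 in replicate 2 and 1 in replicate 3 were as low as GI. The spots around IAA29 included 2, 3 and 3 as low as IAA29 in replicates 1, 2 and 3. Around GH3.3, 2, 21 and 22 spots were at or below GH3.3 in replicates 1, 2 and 3.

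The calls of GI and IAA29 depended on how the arrays were scaled, and that of TIC less so. With the arrays brought to a common median absolute deviation of all 45220 features, TIC alone of the 4 genes passed, and 5.41% of loci did, none with an adjusted p under 0.0494. The factors for replicates 1, 2 and 3 were then 0.842, 1.31 and 0.907. With the deviation taken over the named loci alone, a setting added after the data had been seen, the factors were 0.949, 0.986 and 1.07, and GI, TIC and IAA29 passed, with 18.2% of loci. The median absolute deviation of replicate 2 was 0.09 over all features, against 0.14 and 0.13 in replicates 1 and 3. Over the named loci it was 0.26, against 0.27 and 0.24, so replicate 2 was narrow over all features but not over the named loci. In the fits that left out replicate 1 or replicate 3, limma passed 0 of the 7234 loci, these genes included, with 1613 and 1585 loci at an unadjusted p under 0.05. Without replicate 2 GI, TIC and IAA29 passed, with 19.1% of loci, the mean of GI was -0.94, and that of GH3.3 turned to -0.06.

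**Figure D5:**
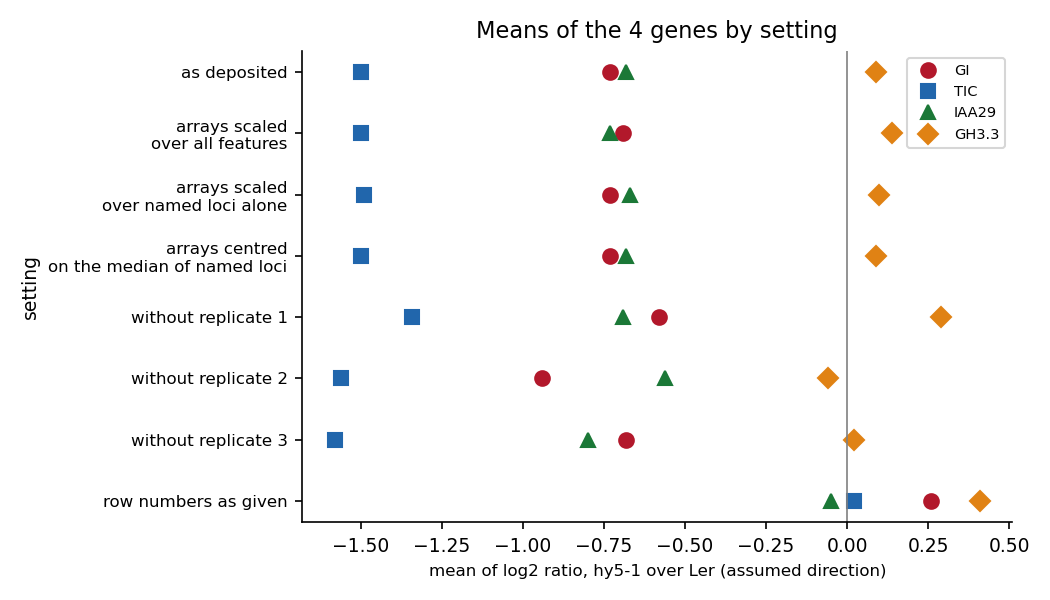
Mean log2 ratio (horizontal axis) of the 4 genes as deposited and under 7 other settings (vertical axis). With row numbers as given, GI is at 0.26, TIC at 0.02 and IAA29 at -0.05. In the other settings TIC stays between -1.58 and -1.34, GI and IAA29 stay below 0, and GH3.3 crosses 0 without replicate 2.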

How the data were processed

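The table deposited by the authors held values read as log2 ratios of the 2 channels for 45220 features on 3 arrays. No source used here states the log base, normalisation or software. Base 2 was assumed, and all fold values rest on it. The labels put hy5-1 in Cy5 and Ler in Cy3. The 7440 named features, each with 1 gene in the platform annotation, were placed on a grid of 266 columns and 170 rows by the stated ordering. They were assigned through Entrez identifiers and RefSeq (TAIR10.1) to 7234 loci, 7095 of them with 1 feature, and features of a locus were averaged. 37780 features were not named here. Each locus was tested against 0 with limma 3.58.1 in R 4.3.3 (an intercept fit over 3 arrays, 2 residual and 3.04 prior degrees of freedom), after a test on simulated data. The number of arrays limits the precision, and signal over background is unknown. The genes and the lists were chosen with earlier results of these data known. Named were the 4 genes, every measured gene of 10 lists, the 3 most alike loci of each gene and its nearest named neighbours. Alternatives covered scaling, centring, moderation, features, row order, a 2-fold minimum and arrays left out.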

Additional observations from a re-analysis of the deposited data

How the results depend on the processing

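With arrays scaled over all features, 391 loci passed (166 higher, 225 lower), 1 of the 4 genes (TIC), 1 clock gene and 0 Aux/IAA genes, against 1242 (570 and 672), 3, 2 and 1 as deposited. The cause was not tested. With the unmoderated statistic the counts were 3 (2 and 1), 0, 0 and 0. With a 2-fold minimum, which by construction keeps fewer loci, they were 151 (18 and 133), 1 (TIC), 1 and 0. With row numbers as given, which assigns other features to the genes, they were 491 (242 and 249), 1 (GH3.3), 0 and 0, with 1 GH3 gene, and the means of GI and TIC turned to 0.26 and 0.02. Leaving out an array gave 0 to 1380 loci (0 to 655 higher, 0 to 725 lower), 0 to 3 of the 4 genes, 0 to 2 clock genes and 0 to 1 Aux/IAA genes. The 0 came without replicate 1 and without replicate 3, where 1613 and 1585 loci had a limma p under 0.05. Scaling over named loci, the fit per feature, robust moderation and median centring kept all counts within 1.5 times. With an array left out, the means ran from -1.58 to -1.34 for TIC, -0.94 to -0.58 for GI, -0.80 to -0.56 for IAA29 and -0.06 to 0.29 for GH3.3. The 9 other listed genes did not pass in any of 11 settings (the adjusted p of SPY ran from 0.0990 to 0.981). As deposited, 17.2% of all loci passed. Of the 12 most alike loci, 1 or 2 remained with an array left out. No paired analysis was possible because the ratios form 1 group, with no other group to pair by replicate number, and the test of each ratio against 0 already compares the genotypes within arrays.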
